A study of Homo sapiens with 9 samples.

Results

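The genes described here are 43 coagulation and complement genes that the liver expresses and whose products, with a few membrane-bound exceptions, it secretes into plasma. They were chosen by name, and each was matched to 1 Ensembl identifier among the 60664 rows of the count table. They were divided by function into 11 clotting factors, 3 fibrinogen chains, 6 anticoagulants, 5 genes of fibrinolysis and adhesive glycoproteins, and 18 complement genes. They were measured by poly(A)-selected, stranded RNA-seq in Huh-7 cells, an established human hepatocellular carcinoma line. The study compared 3 Huh-7 lines with 3 libraries each: the wild type (WT), a line without vault RNA 1-1 (1-1 KO) and a line without vault RNA 1-2 (1-2 KO). Vault RNAs are short non-coding RNAs made by RNA polymerase III, some of which sit in the vault particle. All lines were harvested at about 80% confluency from serum-containing medium, and none was treated. The WT and 1-1 KO cells came from another laboratory, and the 1-2 KO was a single-cell clone made from that WT by CRISPR/Cas9 with guides on both sides of the gene. Each knockout was 1 line, so the deletion and anything else particular to that line cannot be told apart. The libraries of a line are described as biological replicates from repeated RNA extractions, without saying whether separate cultures were used, so the p-values below measure the spread between these libraries of 1 line.

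Blood clots when a chain of serine proteases, started by tissue factor or by the contact system, turns prothrombin into thrombin, which cuts fibrinogen into fibrin. Antithrombin, heparin cofactor II, the protein C pathway and tissue factor pathway inhibitor hold this chain in check, and plasmin dissolves the clot. Complement is a second protease cascade of plasma, started by the classical, lectin or alternative pathway, which meets at C3 and ends in a pore of C5 to C9. Hepatocytes are the main source of most of these proteins, and many of the genes, fibrinogen and C3 among them, are induced in the acute-phase response through interleukin-6 and STAT3.

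The libraries held between 32384469 and 41782387 counted reads. The 43 genes held 0.780% to 0.808% of the counts in the WT libraries, 1.02% to 1.03% in the 1-1 KO and 0.715% to 0.756% in the 1-2 KO. The vault RNAs themselves could not serve as a check of the labels: a single read (1 count) was assigned to VTRNA1-1, in WT replicate 1, and none in the remaining 8 libraries, and VTRNA1-2 stood at 0 counts in all 9; mRNA libraries are not built to capture such short RNAs. All 9 hepatocyte markers examined (ALB, AFP, APOA1, APOA2, APOB, TTR, SERPINA1, TF and AHSG) were well above the limit of 3 counts in every library. Their summed level was 13314 to 14130 CPM (counts scaled to the TMM-adjusted library total) in the WT, 28934 to 29788 in the 1-1 KO and 20361 to 22405 in the 1-2 KO. By the test below, all 9 were higher in the 1-1 KO than in the WT, beside 32.5% of all tested genes. In the 1-2 KO the markers were divided, with 5 higher, 2 lower and 2 not called, from −0.64 to 2.08 on the log2 scale. Summed markers of other liver cells also differed between the lines, often through 1 gene. Endothelial markers lay between 7.74 and 8.32 CPM in the WT, 6.59 and 7.39 in the 1-1 KO and 0.926 and 1.30 in the 1-2 KO, with CLEC4G, KDR, TEK and TIE1 at 3 counts or fewer everywhere. Stellate or fibroblast markers lay at 189 to 199, 284 to 298 and 122 to 130 CPM, and leukocyte markers at 115, 102 to 108 and 21.8 to 22.5 CPM, with CD163 and CD68 at 3 counts or fewer. In the 1-2 KO the lower stellate or fibroblast sum came from LUM (62.1 CPM beside 157 in the WT). The lower leukocyte sum came from LYZ (19.2 beside 113), while 4 of 6 tested stellate or fibroblast markers and 2 of 3 tested leukocyte markers were higher. In the 1-2 KO 28.2% of all tested genes were called higher and 26.2% lower. Of the endothelial markers only 2 were tested, and in the 1-2 KO 1 was lower and 1 was not called. The part of these shifts in the results below was not tested. In bulk RNA, fewer cells that express a gene and less RNA per cell cannot be told apart.

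Levels of different genes were compared as RPKM, counted reads scaled to exon length and library size. Fibrinogen beta (FGB) was the most abundant of the 43 mRNAs in the WT at a mean of 605 RPKM, followed by vitronectin (VTN) at 587, fibrinogen alpha (FGA) at 283 and fibrinogen gamma (FGG) at 283. Below these came SERPINF2 at 80.6, F2 at 77.9, SERPIND1 at 73.1, C3 at 43.8 and PROS1 at 42.6 RPKM. Thus the mRNAs of fibrinogen and VTN made up most of the signal. Prothrombin (F2) stood between the inhibitors SERPINF2 and SERPIND1, but most proteases were far lower. F10 stood at 18.3 RPKM, F7 at 4.03, F12 at 1.53 and KLKB1 at 0.576. In the 1-1 KO FGB again came first at 790 RPKM, whereas in the 1-2 KO VTN at 742 RPKM came before FGB at 512. Among close neighbours in this order, FGB and VTN in the WT, and FGA and FGG in the WT, differed by less than the spread between libraries. These ranks depend on the exon length used for each gene, and counting the longest transcript instead moved ranks by up to 7 places, so small gaps between genes should not be read as an order.

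**Figure D1:**
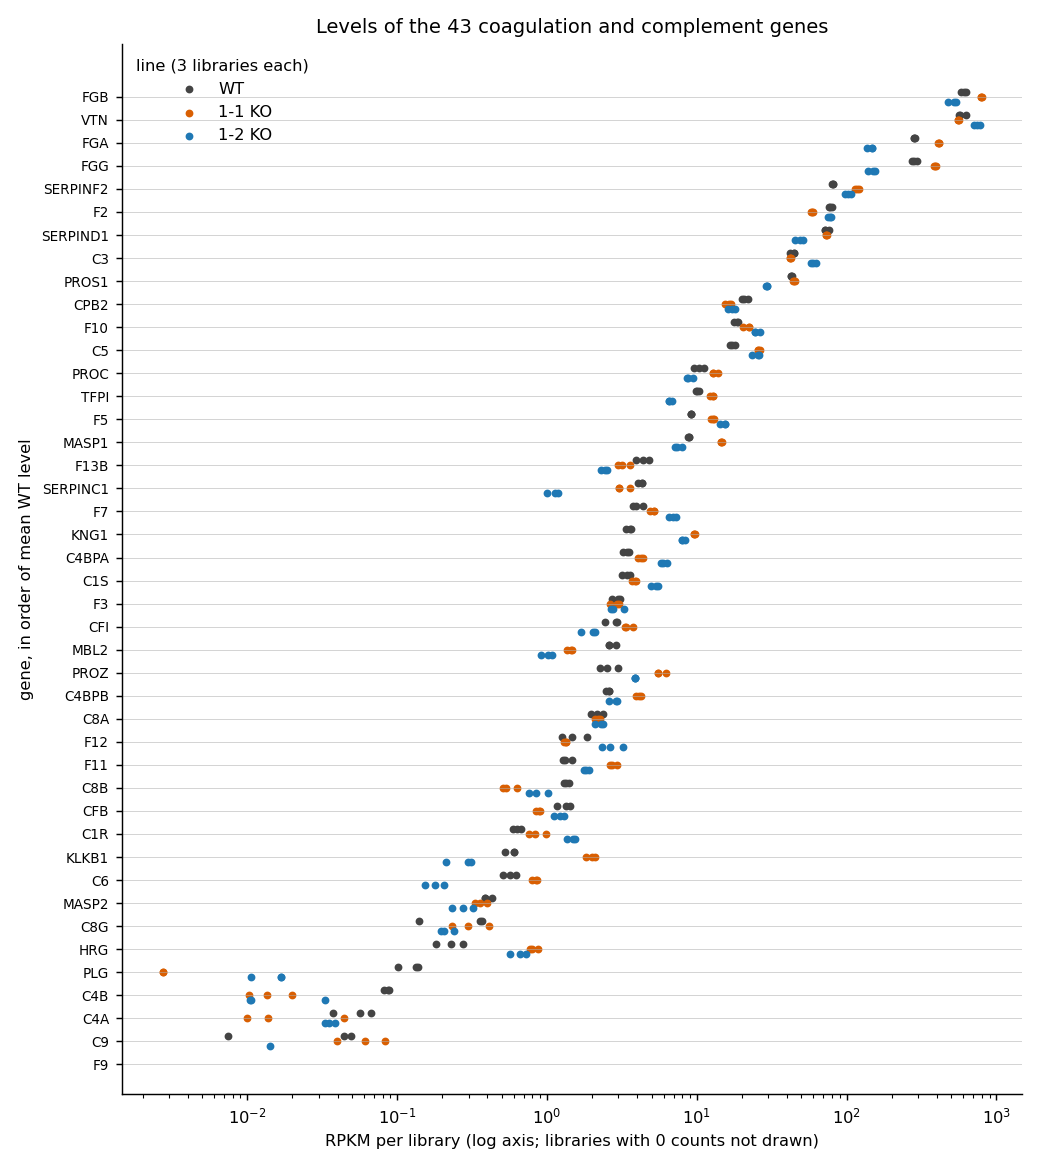
RPKM of each of the 43 genes in each of the 9 libraries, on a log axis, in the order of the mean WT level; each point is 1 library and the colour gives the line. The levels run from FGB at a WT mean of 605 RPKM down to F9, which had 0 counts in every library.

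Of the 43 genes, 41 passed the filter on low counts. F9, the gene of clotting factor IX, had 0 counts in all 9 libraries, where a count of 0 allows up to 3 counts. C9, whose product forms the ring of the complement pore, had 7, 1 and 5 counts in the WT, 6, 9 and 12 in the 1-1 KO and 0, 2 and 0 in the 1-2 KO, too few for the test. For the 41 genes the lines were compared in edgeR (quasi-likelihood F test; p adjusted by Benjamini and Hochberg's method across the 17207 genes tested), and a gene was called at an adjusted p under 0.05.

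In the 1-1 KO 22 of the 41 genes rose and 10 fell against the WT, a share of 78% called beside 63.4% of all tested genes. Of all tested genes 32.5% were called higher and 30.9% lower. The median log2 fold change of the 41 was 0.24, and that of all tested genes was 0.01. In the 1-2 KO 15 rose and 19 fell, 82.9% called beside 54.4% of all genes, of which 28.2% were higher and 26.2% lower. The median of the 41 was −0.21 here, beside 0.02 for all genes. Directly against the 1-1 KO, 13 genes were higher in the 1-2 KO and 21 lower, 82.9% beside 65.3% of all genes, with 33.1% higher and 32.2% lower. The median of the 41 was −0.25, beside 0.01 for all genes.

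The 3 lines thus differed in most of these genes, but not in 1 direction. Against the WT, 12 genes were higher in both knockouts: F5, F7, F10, F11, KNG1, PROZ, SERPINF2, HRG, C1R, C1S, C5 and C4BPA. A further 7 were lower in both, namely F13B, SERPINC1, PLG, CPB2, C4B, C8B and MBL2. For 9 genes the call was higher in the 1-1 KO and lower in the 1-2 KO: the fibrinogen chains FGA, FGB and FGG, the prekallikrein gene KLKB1, the anticoagulants PROC and TFPI, and C6, CFI and MASP1. No gene was called lower in the 1-1 KO and higher in the 1-2 KO. Both comparisons used the same 3 WT libraries. The share of all tested genes with each of these patterns was not counted, so the patterns cannot be set against it. F3, C8A and C8G passed the threshold in neither.

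**Figure D2:**
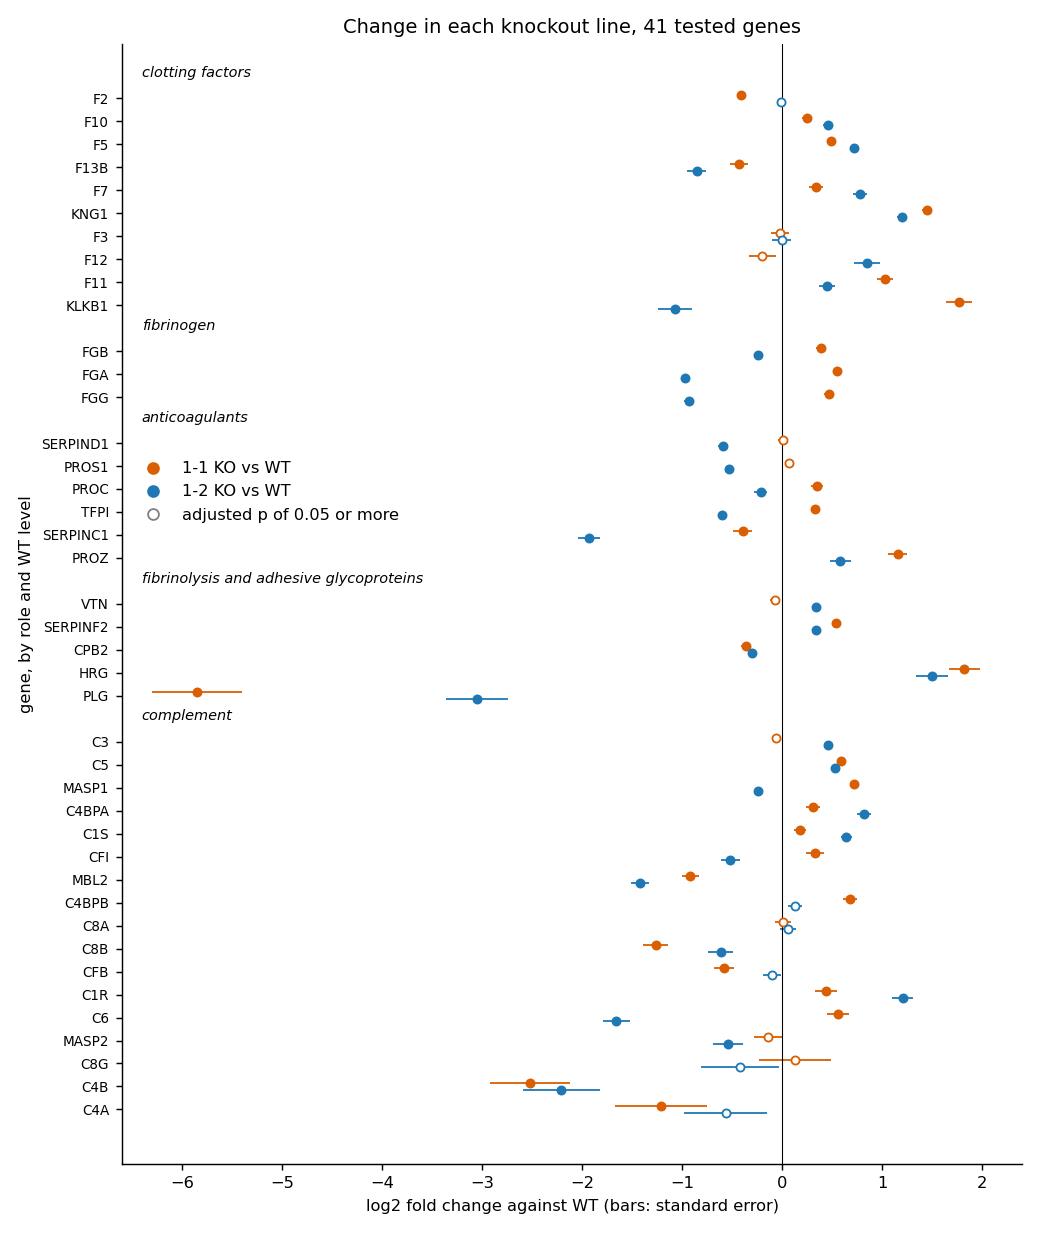
Log2 fold change of the 41 tested genes in the 1-1 KO and the 1-2 KO against the WT, by role; bars are standard errors over 3 libraries a line and open points have an adjusted p of 0.05 or more. All 3 fibrinogen points lie to the right of 0 in the 1-1 KO and to the left in the 1-2 KO; the values of PLG rest on 0 to 6 counts a library in the knockouts.

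Fibrinogen rose in the 1-1 KO and fell in the 1-2 KO, in all 3 of its chains. The median log2 fold change of the 9 hepatocyte markers was 0.58 in the 1-1 KO and 0.15 in the 1-2 KO. The genes lie side by side on chromosome 4 (GRCh38), FGB at chr4:154563011-154572807 on the plus strand, FGA at chr4:154583126-154590742 and FGG at chr4:154604134-154612967 on the minus strand. FGA had 44201, 41925 and 34624 counts in the WT, 68372, 66811 and 65510 in the 1-1 KO and 22486, 23081 and 23327 in the 1-2 KO. As CPM this was 1109 ± 10.3 (SD, n = 3), 1615 ± 9.35 and 565 ± 27.2, and the libraries of no line overlapped those of another. The log2 fold change of FGA was 0.54 ± 0.04 (SE, adjusted p = 1.75e-08) in the 1-1 KO and −0.97 ± 0.04 (adjusted p = 5.61e-11) in the 1-2 KO. FGG followed FGA closely, with 40125, 39967 and 30838 counts in the WT, 59378, 56757 and 57979 in the 1-1 KO and 21009, 22244 and 21621 in the 1-2 KO. Its log2 fold changes were 0.46 ± 0.04 (adjusted p = 5.82e-07) and −0.93 ± 0.05 (adjusted p = 5.60e-10). FGB, the most abundant chain, moved least: 105914, 102086 and 80542 counts in the WT, 145459, 141792 and 141980 in the 1-1 KO and 88068, 93041 and 91973 in the 1-2 KO. This gave 0.39 ± 0.04 (adjusted p = 2.50e-06) in the 1-1 KO and −0.24 ± 0.04 (adjusted p = 2.89e-04) in the 1-2 KO.

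The balance of the chains therefore shifted in the 1-2 KO. Within a library, the RPKM of FGB was 2.14 ± 0.05 (SD, n = 3) times that of FGA in the WT, 1.92 ± 0.02 times in the 1-1 KO and 3.55 ± 0.05 times in the 1-2 KO. The ratio of FGB to FGG went the same way, with 2.14 ± 0.04, 2.03 ± 0.02 and 3.46 ± 0.03, while the ratio of FGA to FGG stayed between 0.98 ± 0.02 and 1.06 ± 0.02. The size of each ratio depends on the exon lengths used, but the fold between the lines' ratios does not. The 3 chains together took 0.465% ± 0.01 of all counts in the WT, 0.654% ± 0.003 in the 1-1 KO and 0.338% ± 0.02 in the 1-2 KO. The 50 tested genes nearest to the cluster had a median log2 fold change of 0.34 to 0.35 in the 1-1 KO. Scaled to that median, FGA was 0.20 (adjusted p = 3.71e-04) and FGG 0.11 (adjusted p = 0.0413) higher in the 1-1 KO. The call of FGB was lost there (0.04, adjusted p = 0.484). Scaled likewise, the falls in the 1-2 KO were not reduced, at −1.11 for FGA and −1.08 for FGG. The p-values scaled in this way take the median as fixed and leave out the scatter among the 50 genes.

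The RefSeq promoter windows of the fibrinogen genes are shown because the chains changed unequally: each is the 250 bases before the annotated start (GRCh38.p14), 5′ to 3′ on the gene's strand. FGA is chr4:154590743-154590992 (minus), FGB chr4:154562761-154563010 (plus) and FGG chr4:154612657-154612906 (minus). The FGA and FGB windows end at the gene starts given above, whereas RefSeq's start of FGG lies inside the GENCODE interval of the gene, so its window and distances refer to that downstream start. Capitals mark the letters CTGGGA, the core of the interleukin-6 response element described for these genes, GTTAAT, a half-site of HNF1, and TTGCNNAA, a C/EBP core, each searched on both strands.
FGA: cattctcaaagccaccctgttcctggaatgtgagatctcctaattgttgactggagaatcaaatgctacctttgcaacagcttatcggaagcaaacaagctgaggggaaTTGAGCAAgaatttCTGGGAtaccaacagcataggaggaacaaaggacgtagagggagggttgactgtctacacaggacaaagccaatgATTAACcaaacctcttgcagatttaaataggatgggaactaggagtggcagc
FGB: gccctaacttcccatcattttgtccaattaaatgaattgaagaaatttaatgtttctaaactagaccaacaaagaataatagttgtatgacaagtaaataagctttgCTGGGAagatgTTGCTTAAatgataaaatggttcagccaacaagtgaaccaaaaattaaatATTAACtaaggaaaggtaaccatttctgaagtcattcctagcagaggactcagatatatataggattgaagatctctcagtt
FGG: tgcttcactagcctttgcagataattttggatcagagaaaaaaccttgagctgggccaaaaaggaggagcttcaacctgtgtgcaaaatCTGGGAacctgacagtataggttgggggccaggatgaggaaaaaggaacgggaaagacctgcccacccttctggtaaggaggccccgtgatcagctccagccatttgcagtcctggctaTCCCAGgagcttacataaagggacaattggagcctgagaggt
CTGGGA lay 127 bases before the start in FGA, 143 in FGB and 161 in FGG, with a further match on the opposite strand of FGG 42 bases before the start. FGA and FGB also held the HNF1 letters, 52 and 82 bases before the start, and the C/EBP letters, 141 and 132 bases before it; FGG held neither in this window. No match overlapped another. RefSeq gave a window for 36 of the 43 genes, and none was used here for C3, SERPINF2, C4A, C4B, C1S, SERPINC1 and C8G. For each of the 36 genes 1 window was used, the one whose start lay nearest the GENCODE start. The shares of all windows count every window, so the 2 kinds of share rest on unlike units. Of the 36, 36.1% held CTGGGA, 19.4% GTTAAT and 25% TTGCNNAA, and among all 35116 windows the shares were 28.7%, 6.23% and 9.05%. These are matches of letters, and no binding was measured.

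Among the clotting factors, 6 of the 10 tested rose and 2 fell in each knockout. That is 80% called, beside 63.4% of all tested genes in the 1-1 KO and 54.4% in the 1-2 KO. Their median log2 fold change was 0.29 in the 1-1 KO and 0.45 in the 1-2 KO. The largest changes were in the contact system, in which factor XII, prekallikrein and high-molecular-weight kininogen start the intrinsic pathway on surfaces. KNG1, the kininogen gene, had 660, 626 and 489 counts in the WT, 1854, 1823 and 1836 in the 1-1 KO and 1543, 1471 and 1543 in the 1-2 KO. It rose in both, by a log2 fold change of 1.45 ± 0.05 (adjusted p = 1.02e-11) and 1.20 ± 0.05 (adjusted p = 8.28e-11). KLKB1, which encodes prekallikrein, had 65, 61 and 45 counts in the WT, 228, 203 and 233 in the 1-1 KO and 34, 23 and 34 in the 1-2 KO. The lines did not overlap, and KLKB1 rose in the 1-1 KO (1.77 ± 0.13, adjusted p = 3.40e-08) and fell in the 1-2 KO (−1.07 ± 0.17, adjusted p = 9.56e-05). F11, the gene of factor XI and next to KLKB1 at a gap of 7717 nt on chromosome 4, rose in both lines. It had 202, 199 and 185 counts in the WT, 493, 448 and 430 in the 1-1 KO and 323, 283 and 293 in the 1-2 KO, or 1.03 ± 0.08 and 0.45 ± 0.08 on the log2 scale (adjusted p = 6.99e-08 and 4.13e-04). F12, the gene of factor XII, had 329, 269 and 331 counts in the WT and 321, 312 and 299 in the 1-1 KO, where its value of −0.20 ± 0.14 was not called, and 771, 525 and 595 in the 1-2 KO, where it rose by 0.85 ± 0.13 (adjusted p = 7.32e-05).

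The factors of the extrinsic and common pathways had smaller changes than KNG1 and KLKB1. F3, which encodes tissue factor, the membrane protein that starts clotting after injury, had 273 to 331 counts in the WT, 315 to 360 in the 1-1 KO and 308 to 399 in the 1-2 KO, with log2 fold changes of −0.02 ± 0.09 and −0.01 ± 0.09 and overlapping libraries. F7, the protease that binds tissue factor, had 521 to 570 counts in the WT, 757 to 838 in the 1-1 KO and 992 to 1157 in the 1-2 KO. It rose by 0.34 ± 0.07 (adjusted p = 4.80e-04) and 0.78 ± 0.07 (adjusted p = 1.95e-07). F10, the protease of the prothrombin-cleaving complex, and F5, its cofactor, were higher in both lines as well. F10 changed by 0.24 ± 0.05 and 0.46 ± 0.05 (adjusted p = 6.03e-04 and 2.30e-06), and F5 by 0.48 ± 0.04 and 0.72 ± 0.04 (adjusted p = 7.08e-08 and 1.39e-09). F2, the prothrombin gene and the most abundant of this group, had 7824, 7309 and 6341 counts in the WT, 6264, 6064 and 6151 in the 1-1 KO and 8313, 7573 and 8007 in the 1-2 KO. At 198 ± 3.16, 149 ± 1.78 and 196 ± 5.01 CPM it fell in the 1-1 KO (−0.41 ± 0.03, adjusted p = 8.99e-08) and was −0.01 ± 0.03 in the 1-2 KO (adjusted p = 0.770). F13B, the carrier subunit of the fibrin-crosslinking factor XIII, had 361 to 521 counts in the WT, 352 to 425 in the 1-1 KO and 266 to 298 in the 1-2 KO, and fell in both (−0.43 ± 0.09 and −0.85 ± 0.09, adjusted p = 7.56e-04 and 2.53e-06).

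The anticoagulants were divided in the 1-1 KO, where 3 rose, 1 fell and 2 were not called, and lower in the 1-2 KO, where 5 of 6 fell and PROZ alone rose. All 6 were lower in the 1-2 KO than in the 1-1 KO, by log2 values between −1.54 and −0.56. The shares called in these 3 comparisons were 66.7%, 100% and 100%, beside 63.4%, 54.4% and 65.3% of all tested genes. Of all tested genes 26.2% were lower in the 1-2 KO than in the WT, and 32.2% lower than in the 1-1 KO. SERPINC1, the antithrombin gene, changed most, with 293, 262 and 235 counts in the WT, 260, 214 and 213 in the 1-1 KO and 82, 81 and 69 in the 1-2 KO. At 7.27 ± 0.25, 5.52 ± 0.54 and 1.90 ± 0.16 CPM, its libraries did not overlap between lines, and it fell by 0.39 ± 0.10 on the log2 scale in the 1-1 KO (adjusted p = 0.00232) and by 1.93 ± 0.11 in the 1-2 KO (adjusted p = 2.61e-09). SERPIND1, which encodes heparin cofactor II, an inhibitor of thrombin, had 7039, 6242 and 5218 counts in the WT, 7197, 7042 and 6880 in the 1-1 KO and 4434, 4499 and 4773 in the 1-2 KO. It was 0.00 ± 0.04 in the 1-1 KO and fell in the 1-2 KO by 0.59 ± 0.04 (adjusted p = 5.17e-08).

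The protein C pathway inactivates factors V and VIII, and both of its genes here were lower in the 1-2 KO. PROS1, the cofactor protein S, had 8885, 8520 and 7027 counts in the WT, 9746, 9727 and 9673 in the 1-1 KO and 6422, 6201 and 6243 in the 1-2 KO, or 0.06 ± 0.03 (adjusted p = 0.0874) and −0.54 ± 0.03 (adjusted p = 4.34e-09). PROC, protein C itself, had 880 to 1019, 1304 to 1415 and 857 to 987 counts, and its log2 fold change was 0.35 ± 0.06 (adjusted p = 2.58e-04) in the 1-1 KO. In the 1-2 KO PROC was −0.21 ± 0.06 (adjusted p = 0.0121), a call that scaling by library size alone removed (adjusted p = 0.0588). TFPI, which blocks tissue factor with factor VIIa, had 4660, 4562 and 3638 counts in the WT, 6326, 5946 and 6174 in the 1-1 KO and 3234, 3165 and 3071 in the 1-2 KO. It rose by 0.33 ± 0.03 in the 1-1 KO (adjusted p = 1.38e-06) and fell by 0.60 ± 0.04 in the 1-2 KO (adjusted p = 4.46e-09). The genes around TFPI rose more than TFPI in the 1-1 KO, with a median of 0.45. With that median taken as fixed, TFPI was lower there relative to them (−0.12, adjusted p = 0.00849). PROZ, the cofactor that helps to inhibit factor Xa, had 119 to 187 counts in the WT, 379 to 439 in the 1-1 KO and 258 to 274 in the 1-2 KO, and rose by 1.15 ± 0.10 and 0.58 ± 0.10 (adjusted p = 1.69e-07 and 2.39e-04).

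Of the genes of fibrinolysis and the adhesive glycoproteins, PLG had the largest change of the 41 tested genes. PLG (chr6:160702194-160754097, plus strand) encodes plasminogen, the precursor of plasmin. It had 36, 45 and 39 counts in the WT, 0, 1 and 1 in the 1-1 KO and 4, 6 and 6 in the 1-2 KO. The level was low in every line, 1.11 ± 0.18 CPM in the WT, and in the 1-1 KO PLG was at 1 count or fewer in every library. From the summed counts it was 68.5-fold lower in the 1-1 KO (95% interval 18.6 to 572, for counting error only) and 8.41-fold lower in the 1-2 KO (4.97 to 15.2), with adjusted p = 5.76e-08 and 1.24e-06. SERPINF2, the gene of alpha-2-antiplasmin, the main inhibitor of plasmin, rose in both, with 5992 to 7545 counts in the WT, 10843 to 11719 in the 1-1 KO and 9050 to 10080 in the 1-2 KO (0.54 ± 0.04 and 0.34 ± 0.04, adjusted p = 4.20e-08 and 6.73e-06). CPB2, a carboxypeptidase that protects fibrin from plasmin, fell by 0.37 ± 0.05 and 0.30 ± 0.05 (adjusted p = 1.55e-05 and 1.37e-04). HRG, a histidine-rich glycoprotein that binds heparin and plasminogen, had 55, 34 and 36 counts in the WT, 167, 180 and 156 in the 1-1 KO and 139, 112 and 144 in the 1-2 KO, a rise of 1.82 ± 0.15 and 1.49 ± 0.16 (adjusted p = 1.55e-07 and 2.02e-06). VTN, a glycoprotein of cell attachment, had 47355, 40281 and 34273 counts in the WT and 44925, 43325 and 43428 in the 1-1 KO, where it was not called (−0.08 ± 0.04), and rose in the 1-2 KO to 56779, 56294 and 59292 counts (0.34 ± 0.04, adjusted p = 1.65e-05).

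**Figure D3:**
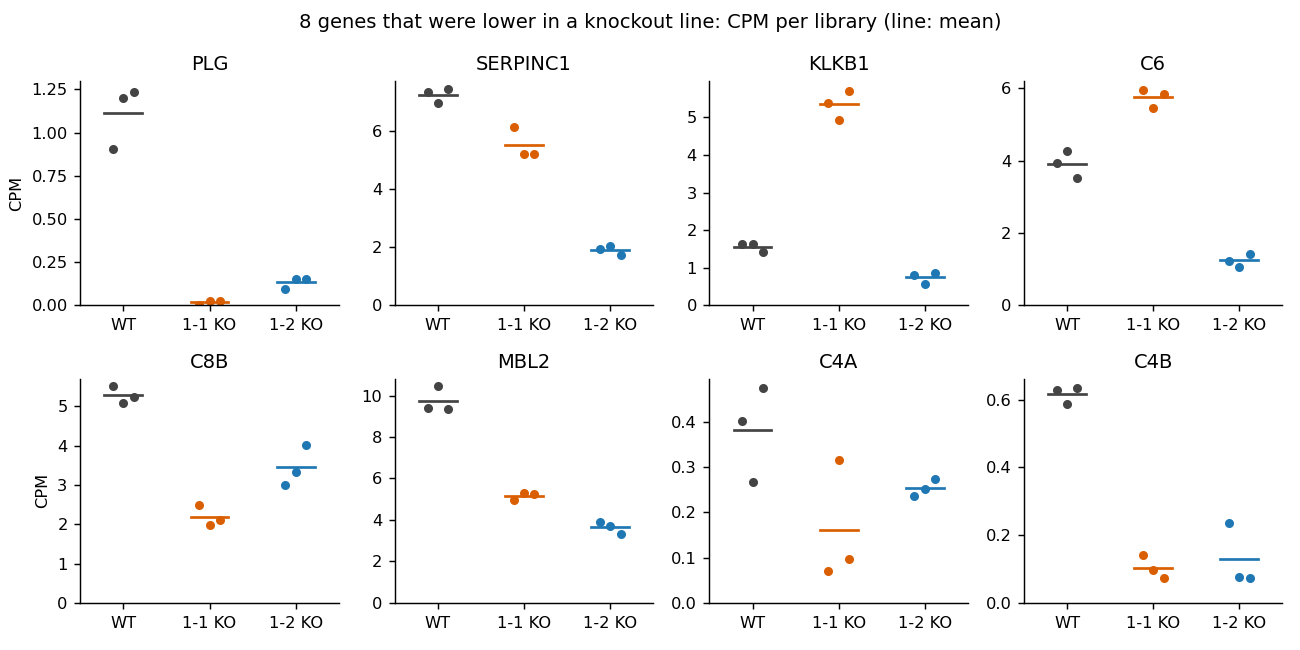
CPM of 8 genes that were lower in at least 1 knockout line, per library (points) with the mean of 3 libraries (line); each panel starts at 0. PLG lies at 1.11 CPM in the WT and near 0 in the 1-1 KO, KLKB1 and C6 are higher than the WT in the 1-1 KO and lower in the 1-2 KO, and the C4A libraries of the lines overlap.

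The complement genes went both ways: 8 of 17 tested rose and 5 fell in the 1-1 KO, and 5 rose and 7 fell in the 1-2 KO, with medians of 0.13 and −0.24. The shares called were 76.5% and 70.6%, beside 63.4% and 54.4% of all tested genes. In the classical pathway, C1R and C1S, the proteases of the first component, were higher in both knockouts. C1R had 155, 138 and 109 counts in the WT, 186, 234 and 198 in the 1-1 KO and 332, 356 and 346 in the 1-2 KO, and rose by 0.43 ± 0.11 (adjusted p = 0.00345) and 1.20 ± 0.11 (adjusted p = 3.12e-07). C1S, 9181 nt away on chromosome 12, had 933 to 1128, 1242 to 1358 and 1721 to 1831 counts and rose in the 1-2 KO by 0.64 ± 0.06 (adjusted p = 4.03e-07). Its value in the 1-1 KO, 0.18 ± 0.06 (adjusted p = 0.0155), was no longer called without WT replicate 2 (adjusted p = 0.0829) or without 1-1 KO replicate 2 (adjusted p = 0.0620). The near-identical genes of component 4 were scarce throughout. C4A had 16, 10 and 15 counts in the WT, 3, 13 and 4 in the 1-1 KO and 10, 10 and 11 in the 1-2 KO, and C4B had 25, 22 and 20, then 6, 4 and 3, then 10, 3 and 3. C4B fell in both lines (−2.52 ± 0.40 and −2.21 ± 0.38, adjusted p = 6.95e-05 and 2.05e-04), and C4A, whose WT and 1-2 KO libraries overlapped, was not called in the 1-2 KO (−0.57 ± 0.42, adjusted p = 0.272). Since reads may not tell these copies apart, they were also summed: the sum was 0.998 ± 0.13 CPM in the WT, 0.266 ± 0.13 in the 1-1 KO and 0.384 ± 0.08 in the 1-2 KO, or −1.89 ± 0.29 (adjusted p = 6.27e-05) and −1.36 ± 0.28 (adjusted p = 7.70e-04). C4A alone was called in the 1-1 KO (−1.21 ± 0.46, adjusted p = 0.0316), a call lost without WT replicate 1, WT replicate 3, 1-1 KO replicate 1 or 1-1 KO replicate 3, with adjusted p = 0.0775, 0.0986, 0.129 and 0.113, and under DESeq2 (adjusted p = 0.0718).

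The lectin pathway starts when mannose-binding lectin meets sugars on microbes and its associated proteases cut C4 and C2. MBL2, the lectin gene, had 375, 392 and 295 counts in the WT, 209, 217 and 215 in the 1-1 KO and 165, 147 and 133 in the 1-2 KO. It fell by 0.92 ± 0.09 and 1.42 ± 0.09 (adjusted p = 4.66e-07 and 1.03e-08). MASP1, the more abundant of its proteases, had 4669, 4366 and 3616 counts in the WT, 8068, 7906 and 7734 in the 1-1 KO and 3973, 3831 and 4166 in the 1-2 KO. In CPM the lines did not overlap, and MASP1 rose in the 1-1 KO (0.72 ± 0.04, adjusted p = 1.17e-09) and fell in the 1-2 KO (−0.24 ± 0.04, adjusted p = 9.47e-05). MASP2 had 69 to 79 counts in the WT, 70 to 86 in the 1-1 KO and 50 to 65 in the 1-2 KO, with −0.14 ± 0.14 (adjusted p = 0.400) and −0.54 ± 0.15 (adjusted p = 0.00694). C3, at which the pathways meet, was the most abundant complement mRNA by RPKM, with 20652, 18300 and 16207 counts in the WT, 20481, 20181 and 19845 in the 1-1 KO and 28208, 27582 and 28954 in the 1-2 KO. It was not called in the 1-1 KO (−0.06 ± 0.04, adjusted p = 0.196) and rose in the 1-2 KO (0.46 ± 0.04, adjusted p = 1.55e-07). CFB, the protease of the alternative pathway, had 234 to 284, 183 to 198 and 237 to 277 counts, and fell in the 1-1 KO by 0.58 ± 0.10 (adjusted p = 9.96e-05), with −0.10 ± 0.09 in the 1-2 KO (adjusted p = 0.360).

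The pore-forming components were also unequal. C5, whose cleavage starts the pore, rose in both knockouts, with 8946 to 11508 counts in the WT, 17900 to 18457 in the 1-1 KO and 16566 to 17455 in the 1-2 KO (0.59 ± 0.04 and 0.53 ± 0.04, adjusted p = 3.68e-08 and 1.53e-07). C6, the next to join, had 156, 160 and 111 counts in the WT, 252, 224 and 238 in the 1-1 KO and 52, 42 and 57 in the 1-2 KO. It rose in the 1-1 KO (0.55 ± 0.11, adjusted p = 4.92e-04) and fell in the 1-2 KO (−1.66 ± 0.13, adjusted p = 1.05e-07). C8 is made of the products of 3 genes, of which C8B alone was called. C8B had 220, 191 and 165 counts in the WT, 105, 82 and 86 in the 1-1 KO and 126, 133 and 161 in the 1-2 KO and fell in both (−1.27 ± 0.13 and −0.62 ± 0.12, adjusted p = 8.58e-07 and 5.92e-04). C8A, 10983 nt away from C8B, had 318 to 437, 402 to 446 and 388 to 455 counts, overlapping in all lines (0.01 ± 0.08 and 0.06 ± 0.08), and C8G had 6 to 20 counts in every library and was not called. Of the regulators that inactivate C3b and C4b, CFI, the protease factor I, had 409 to 619, 721 to 811 and 377 to 441 counts, with 0.33 ± 0.09 (adjusted p = 0.00615) and −0.52 ± 0.09 (adjusted p = 3.30e-04). C4BPA and C4BPB, the chains of the C4b-binding protein, lie 4239 nt apart on chromosome 1. C4BPA rose by 0.31 ± 0.07 and 0.82 ± 0.07 (adjusted p = 0.00147 and 1.86e-07), whereas C4BPB rose by 0.67 ± 0.07 in the 1-1 KO (adjusted p = 1.33e-06) and was 0.13 ± 0.07 in the 1-2 KO (adjusted p = 0.160), so that in the direct comparison of the knockouts C4BPA was 0.51 ± 0.07 higher and C4BPB 0.55 ± 0.07 lower in the 1-2 KO (adjusted p = 1.09e-05 and 7.81e-06).

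Because cell lines can differ in whole chromosome segments, each gene was set beside the median log2 fold change of its 50 nearest tested genes. These medians ran from −0.35 to 0.75 in the 1-1 KO and from −0.91 to 0.27 in the 1-2 KO. They passed 0.5 in size for F11, KLKB1 and C3 in the 1-1 KO, at 0.75, 0.75 and 0.56, and for C6 in the 1-2 KO, at −0.91. Relative to its neighbours, KLKB1 was still higher in the 1-1 KO by 1.02 (adjusted p = 1.36e-05), F11 by 0.28 (adjusted p = 0.00953), and C6 was lower in the 1-2 KO by −0.75 (adjusted p = 3.08e-04). C3 was −0.62 relative to its neighbours in the 1-1 KO (adjusted p = 7.42e-09). The p-values on this scale take each neighbour median as fixed. They measure the spread of the gene between libraries and leave out the scatter among the 50 genes. The calls of CFI and C1S in the 1-1 KO were lost on this scale (−0.07 and 0.02, adjusted p = 0.545 and 0.784), as was that of MASP2 in the 1-2 KO (adjusted p = 0.0742). In the direct comparison the rises of F5 and F7 in the 1-2 KO over the 1-1 KO turned to −0.06 and −0.11 and the fall of F11 to 0.10, none of them called, while F10 turned from 0.21 to −0.33 (adjusted p = 3.67e-05). Part of the cluster around C6 belongs to these pathways too. C9, C7 and C6 lie on chromosome 5 with the cytokine receptor genes LIFR and OSMR, from chr5:38474668 to position 41261438. C7, the pore component between C6 and C8, had 19, 21 and 13 counts in the WT, 63, 79 and 51 in the 1-1 KO and 1, 3 and 2 in the 1-2 KO. No measurement of copy number was used here, and the part of such segments in the results was not tested.

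**Figure D4:**
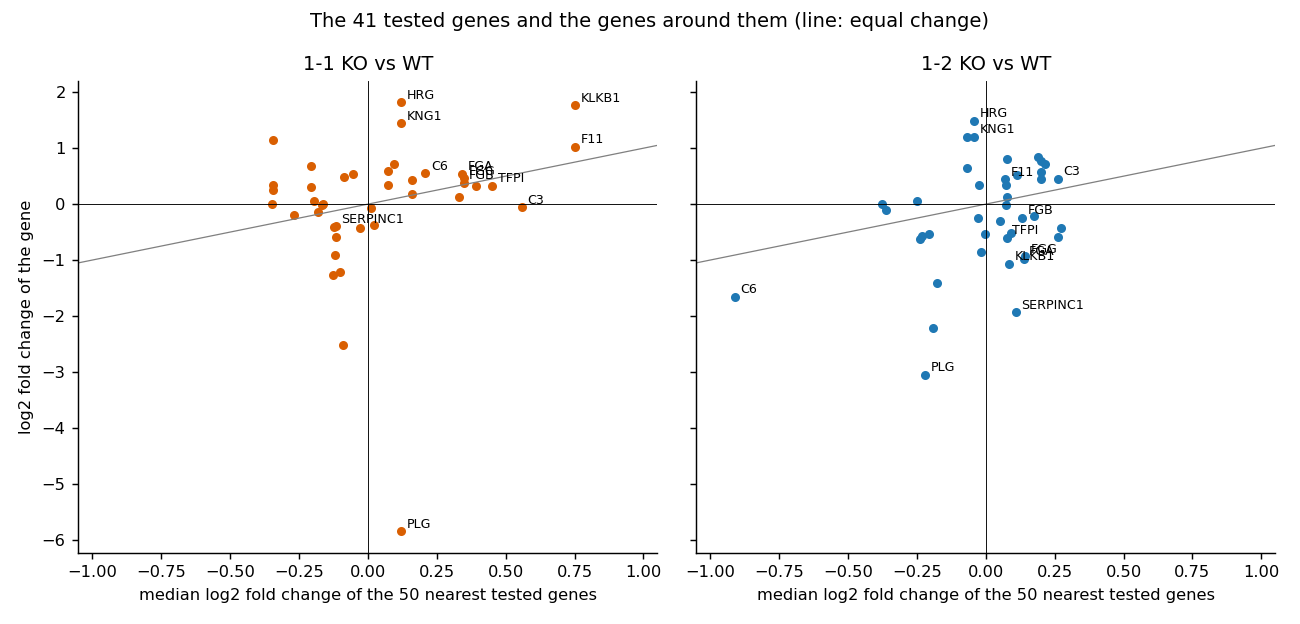
Log2 fold change of each of the 41 tested genes against the median of its 50 nearest tested genes, in the 1-1 KO (left) and the 1-2 KO (right); on the grey line a gene and its surroundings change alike. KLKB1 and F11 stand at a neighbour median of 0.75 in the 1-1 KO and C6 at −0.91 in the 1-2 KO, and in the 1-2 KO SERPINC1, PLG, KNG1 and HRG lie far from the line.

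Some genes share exons with others, and the strand setting of the counting is not given in the sources used here. C1R overlaps C1RL on the same strand over 11.6% of its exon bases, with 590 to 1229 counts for C1RL in all libraries. On the opposite strand, MASP2 shares 3.38% of its exon bases with TARDBP, which had 14570 to 19303 counts beside 50 to 86 for MASP2, and F12 shares 7.06% with GRK6, with 2039 to 3315 counts beside 269 to 771. F11 (13.8%) and KNG1 (14.1%) overlap antisense RNAs, as HRG does over 8.95%, and these had at most 21 counts. A same-strand GENCODE gene that is not listed in the count table covers 78% of the exon bases of KLKB1. A read-through gene covers 42.3% of CFB and another 29.4% of CFI, but both read-through genes had at most 1 count in any library.

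Other genes of the same pathways were counted from lists outside the 43. Of 23 further genes of coagulation and fibrinolysis, 20 were tested; 7 rose and 7 fell in the 1-1 KO (70% called beside 63.4% of all genes), and 6 rose and 9 fell in the 1-2 KO (75% beside 54.4%). SERPINE2, an inhibitor of thrombin, fell in the 1-1 KO (−2.94, adjusted p = 7.35e-15) and rose in the 1-2 KO (0.71, adjusted p = 1.77e-09). SERPINA5, the protein C inhibitor, rose in the 1-1 KO (1.10, adjusted p = 1.00e-11), and A2M, a broad protease inhibitor of plasma, fell in the 1-2 KO (−0.85, adjusted p = 8.82e-10). Of 30 further complement genes only 15 passed the filter, the C1q chains and the ficolins being at 0 or 1 counts. In the 1-1 KO 9 rose and 4 fell (86.7% called beside 63.4% of all genes), and in the 1-2 KO 2 rose and 7 fell (60% beside 54.4%). CD55, which speeds the decay of the C3 convertase on the cell's own surface, rose in both (2.34 and 1.75, adjusted p = 4.44e-11 and 1.42e-09). CD59, which blocks the pore, rose in the 1-1 KO (0.56, adjusted p = 2.99e-08), and C2, the protease that works with C4b, fell in the 1-2 KO (−0.95, adjusted p = 5.85e-08).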

How the data were processed

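Total RNA of 9 Huh-7 libraries (3 lines with 3 each) was made into TruSeq stranded mRNA libraries. The authors aligned the reads to GRCh38 with STAR and counted them per Ensembl gene with featureCounts, and deposited raw counts. Tool versions, the strand setting and the handling of reads with several hits are not given in the sources used here. From these counts edgeR 4.0.16 (R 4.3.3) was fitted to all 9 libraries with TMM scaling, after filterByExpr (min.count 10, min.total.count 15), which left 17207 genes. Quasi-likelihood tests compared each pair of lines, with Benjamini-Hochberg adjustment. CPM uses TMM library sizes. RPKM uses the union of GENCODE 44 exons, in which 60463 of 60664 identifiers were found. Intervals are exact at 95%, and a count of 0 allows up to 3 counts. The fit was tested on simulated data for the comparison of 1-1 KO and WT over 16165 genes, where 162 of 187 changed genes were recovered with 9 false calls. The simulation gave all genes 1 common dispersion and changed far fewer genes than were called in the data. It therefore does not give the rate of false calls here. Alternatives were DESeq2 1.42.0, other scalings and filters, the lines in pairs, a replicate block, an offset for neighbouring genes, C4A and C4B summed, and leaving out each library. All 43 genes are named; of other lists, at most 3 called genes with the smallest adjusted p and a mean of at least 1 CPM per knockout are, besides C7, C1RL, IL6R, LUM, LYZ, TARDBP and GRK6, chosen after their values were seen; some genes of these lists are not reported here. The genes and lists were chosen with earlier results of these data known.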

Additional observations from a re-analysis of the deposited data

How the results depend on the processing

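The number of the 41 genes called stayed within 1.5 times under every alternative except a minimum size. With a log2 fold change beyond 1 required as well, 9 were called in the 1-1 KO (5 higher, 4 lower). In the 1-2 KO 9 were called (3 higher, 6 lower), and between the knockouts 7 (2 higher, 5 lower). At that size 1617 of all 17207 tested genes were higher and 683 lower in the 1-1 KO. The numbers for all tested genes were 1483 and 527 in the 1-2 KO, and 1262 and 1172 between the knockouts. Same-numbered libraries did not deviate together (correlations of −0.19 to 0.05). Between libraries of unlike number the correlation reached 0.24, for WT replicate 3 and 1-2 KO replicate 1. What libraries of different lines may share was not tested. With a replicate block 32, 34 and 33 genes were called, and 1 call changed, that of HRG between the knockouts (adjusted p = 0.0581). That call was also lost under DESeq2 (adjusted p = 0.107), and so was that of MASP2 between the knockouts (adjusted p = 0.121); each was lost when any of several single libraries was left out. Scaling by library size alone moved the median of all genes to 0.06 in the 1-1 KO and 0.07 in the 1-2 KO, and the split of all calls to 6211 higher and 4713 lower, and 5729 and 3803. Scaled to the neighbouring genes, with their medians taken as fixed, signs turned in the 1-1 KO for F3 (0.14), F12 (0.072), TFPI (−0.12), C8G (−0.20), CFI (−0.068) and MASP2 (0.039). They also turned in the 1-2 KO for F3 (0.37, adjusted p = 0.00440) and CFB (0.26, adjusted p = 0.0307), and between the knockouts for F5 (−0.063), F7 (−0.11), F10 (−0.33) and F11 (0.10). This scaling also called SERPIND1 (0.35) and PROS1 (0.26) higher in the 1-1 KO. The other turns of sign were in genes that were not called. In the 1-1 KO they were F3 with library size alone (0.027), SERPIND1 with DESeq2 (−0.0085), with its size factors in edgeR (−0.0084) and with no filter (−0.013), and C8A in the same settings (−0.0016, −0.0016 and −0.0059). In the 1-2 KO F2 and F3 turned with library size alone (0.043 and 0.050). Between the knockouts F3 turned with at least 10 counts in every library (−0.0024) and with only the 2 lines fitted (−0.0048). Leaving out each library in turn, values ran in the 1-1 KO from −0.079 to 0.031 for F3, −0.012 to 0.033 for SERPIND1, −0.055 to 0.076 for C8A and −0.22 to 0.38 for C8G, in the 1-2 KO from −0.026 to 0.0086 for F2, −0.10 to 0.054 for F3 and −0.0059 to 0.12 for C8A, and between the knockouts from −0.081 to 0.077 for F3 and −0.46 to 0.60 for C4B. The cause of these changes was not tested. The main limits are that each genotype is 1 line, so that the knockout and the line cannot be told apart, that the vault RNAs themselves were not measured by these libraries, and that PLG, C4A, C4B, C8G and C9 rest on at most 45 counts a library.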

Other observations

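Regulators known to act on these genes in the liver were not among the 43 and were counted apart. Of 14 liver transcription factors, all tested, 8 rose and 3 fell in the 1-1 KO, and 8 rose and 2 fell in the 1-2 KO, which is 78.6% and 71.4% called beside 63.4% and 54.4% of all tested genes. NR1H4, the bile acid receptor FXR, fell in both, with 1956 to 2468 counts in the WT, 1746 to 1776 in the 1-1 KO and 830 to 903 in the 1-2 KO (−0.57 and −1.54 on the log2 scale, adjusted p = 6.28e-08 and 4.03e-12 by edgeR). HNF4G rose in the 1-1 KO (0.87, adjusted p = 1.06e-07) and FOXA1, a pioneer factor, fell there (−0.72, adjusted p = 1.28e-07). NR5A2 and ONECUT1 rose in the 1-2 KO (0.56 and 0.83, adjusted p = 1.79e-08 and 5.17e-08).

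Of 10 genes of the interleukin-6 receptor family and its signalling, 9 were tested. In the 1-1 KO 2 rose and 2 fell, 44.4% called beside 63.4% of all tested genes. In the 1-2 KO 2 rose and 6 fell, 88.9% beside 54.4%. The receptors fell most in the 1-2 KO: OSMR, the oncostatin M receptor, had 2110 to 2577 counts in the WT, 2006 to 2050 in the 1-1 KO and 380 to 422 in the 1-2 KO (−2.75, adjusted p = 6.53e-14). LIFR fell by 1.03 and IL6ST, the shared signal-transducing chain, by 0.85 on the log2 scale (adjusted p = 1.13e-10 and 1.33e-10), and IL6R, the interleukin-6 receptor itself, was −0.80 (adjusted p = 1.47e-07). OSMR and LIFR lie beside C6, C7 and C9 on chromosome 5. TYK2, a kinase of this pathway, rose in the 1-1 KO (0.51, adjusted p = 2.96e-07), as did SOCS3, a feedback inhibitor induced by STAT3 (1.13, adjusted p = 4.97e-06), while OSMR was −0.42 there (adjusted p = 2.26e-06). No link between these levels and those of the fibrinogen or complement genes was tested.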
